A study of Danio rerio with 18 samples.

Results

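The genes described here are the cytosolic and mitochondrial chaperones of larval zebrafish, the proteins that fold, hold or refold other proteins, together with the co-chaperones that serve them. They were chosen by symbol, with earlier results of these data known. The symbols were hspa, hspb, hspd, hspe, hsph and numbered hsp genes, dnaja, dnajb and dnajc genes, cct genes with tcp1, and numbered bag genes. The endoplasmic reticulum (ER) chaperones hspa5, hsp90b1 and dnajb11 were left out, although the symbol rule still took in 15 genes whose products are placed in the ER membrane or lumen, such as dnajc3a and dnajc10. This gave 95 of 34326 genes, of which 94 had a count in at least 1 library and 90 passed the filter on low counts and were tested. By role they are 32 DnaJ C, 13 DnaJ B and 5 DnaJ A proteins, 14 Hsp70 and Hsp110 proteins, 9 small heat shock proteins, 8 subunits of the CCT chaperonin, 7 BAG proteins, 3 Hsp90 proteins, 2 subunits of the mitochondrial chaperonin, and hspbp1 and hspbap1. The 5 members not tested were hspb3, which had no count, and dnajc22, hspb2, hspb7 and hspb15, none of which passed 1.59 CPM (counts scaled to a common library size) in any library.

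RNA was sequenced from cells sorted for green fluorescence (eGFP) out of dissociated larval eyes, up to 1000 cells to a library, which the labels give as retinal pigment epithelium (RPE), the pigmented sheet behind the photoreceptors. Phenylthiourea at 1.5X, a blocker of pigment formation, was given to larvae of every group between 0.25 and 5 days post fertilisation (dpf). Ablated larvae (MTZ+) then had 10 mM metronidazole for 24 h, from 5 to 6 dpf, and unablated larvae (MTZ-) are the controls. Each treatment was sampled 2, 4 and 7 days post-injury (dpi) with 3 libraries, so there are 6 groups and 18 libraries. The labels name no transgene. In the published system the rpe65a promoter drives a nitroreductase fused to eGFP, an enzyme that turns metronidazole into a toxic product. There is no group with the drug but without the enzyme, so effects of the drug and of cell loss cannot be told apart, and in bulk libraries fewer cells of a type and less RNA per cell cannot be told apart either.

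Hsp70 proteins bind short unfolded stretches and are loaded by DnaJ proteins (J proteins), while Hsp110, BAG and HSPBP1 proteins make them release nucleotide and client. Hsp90 takes over partly folded kinases and receptors, CCT encloses actin, tubulin and other cytosolic proteins in a chamber, and Hspd1 with its lid Hspe1 does the same in the mitochondrial matrix. Some of these genes are switched on by heat shock factor when proteins unfold, whereas others serve newly made proteins in unstressed cells. The RPE digests shed photoreceptor outer segments every day and runs a heavy mitochondrial metabolism.

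Libraries held 21870245 to 60377642 counts, and transcripts encoded by the mitochondrial genome took 3.63 to 12.8% of them. All 17 RPE markers examined were counted, and at 2 dpi their sum ran from 138000 to 257000 CPM without ablation and from 80300 to 96500 CPM after it, with 8 of 17 lower and 1 higher when libraries of the same number were paired. Markers of other cells had these levels at 2 dpi. Photoreceptor markers summed to 359 to 2860 CPM without and 96.8 to 962 CPM with ablation, those of retinal neurons and glia to 1350 to 5770 and 380 to 1160 CPM, lens markers 20.5 to 144 and 4.79 to 12.6 CPM, and muscle markers 60.1 to 1200 and 36.7 to 50.7 CPM. With pairs, 6 of 23 photoreceptor and 4 of 14 neuron and glia markers tested were lower, as were 2 of 13 muscle and 0 of 16 lens markers, and without them 0, 2, 2 and 0. Of all genes 6.87% were lower and 7.56% higher at 2 dpi with pairs, and 0.856% and 1.39% without. Up to 8 of 19 muscle genes and up to 8 of 18 lens genes were at 0 in an ablated 2 dpi library. All 22 cell cycle genes tested had negative fold changes at 2 dpi, 0 past the threshold (2 with pairs), and all 22 had positive ones at 7 dpi, again 0 past it. Macrophage and microglia markers at 4 dpi summed to 5.31 to 99.8 CPM without and 29.1 to 270 CPM with ablation, with up to 14 of 20 genes at 0 in an unablated library. Epidermis and cornea markers summed to 44.8 to 87.7 and 292 to 472 CPM at 4 dpi. Of the 14 tested, 7 had positive and 7 negative fold changes there, with a median log2 fold change of 0.17. Past the threshold were 0, and 1 was higher with pairs, where 4.69% of all genes were. Red cell markers stayed under 32.4 CPM, with hbba2 at 0 throughout. The part these shifts play in the chaperone values was not tested.

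At 2 dpi the chaperones stood higher in ablated than in unablated RPE. Together they summed to 9757 to 10540 CPM in the 3 ablated libraries and 5222 to 8767 CPM in the 3 unablated ones, and the ranges did not overlap. Of the 90 tested, 6 rose and 0 fell in edgeR's quasi-likelihood test at an adjusted p of 0.05, against a background of 1.39% of all 20093 genes tested called higher and 0.856% called lower. The 6 were dnajc21, hspa14, hspd1, dnajc2, cct4 and cct7. The median log2 fold change was 0.66 over members, or 0.64 with dnajc5b, which had no unablated count, at its bound, and −0.03 over all genes. In 25 members every ablated library lay above every unablated one and in 3 below, where the background is 10.5% and 11.6%.

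Libraries of the same time and replicate number deviated together from their group means, so a second model held the 9 pairs as a block. It called 24 members higher and 1 lower at 2 dpi, against 7.56% and 6.87% of all genes. All 6 members above were among the 24. The names of the 2 dpi libraries of replicates 2 and 3 carry the same date and those of replicate 1 carry none. Without all first replicates 3 members were called, all higher (1.63% of all genes), and in the block without the first 2 dpi pair 13, all higher (5.95%). Without the block the calls rest on every library being present: leaving out 1 of the 6 libraries left 0 to 4 calls, with 0 when unablated replicate 2 or replicate 3 was left out, 2 without unablated replicate 1, 3 without ablated replicate 1 or 2 and 4 without ablated replicate 3. Those 6 fits called 19 to 262 of all genes. Over them dnajc21 and hspa14 were still called in 4, hspd1 in 3, cct4 in 1 and dnajc2 and cct7 in 0, while all fold changes remained positive.

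At 4 dpi 0 members passed the threshold in edgeR without the block, 16 had an unadjusted p under 0.05 (11.7% of all genes did), and the background was 0.0647% higher and 0.0299% lower. DESeq2 called 4, all higher, and 3.98% of the genes it tested, so that this count is near its background. With the pairs in the model 12 members rose and 2 fell, against 4.69% and 3.93% of all genes. The median log2 fold change was 0.48 over members (0.44 with the 3 members lacking counts in a group at their bounds) and −0.07 over all genes. The summed level of all members overlapped, at 5300 to 9235 CPM with and 6578 to 9062 CPM without ablation. Groups did not overlap in 24 members on the higher side and 4 on the lower side, with backgrounds of 13.7% and 11.1%. At 7 dpi 0 members were called in edgeR without or with the block, where the background was 0% and 0.00498%. An unadjusted p under 0.05 was seen for 3 members without the block (6.61% of all genes) and 15 with it (14.9%). DESeq2 called 1, lower, and 0.708% of the genes it tested. The median was −0.12 over members and −0.00 over all genes, and 3 members stood apart as higher and 5 as lower, near the backgrounds of 4.28% and 5.04%. Sums of all members overlapped at 7 dpi too, at 5848 to 8694 CPM with and 7247 to 11710 CPM without ablation.

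**Figure D1:**
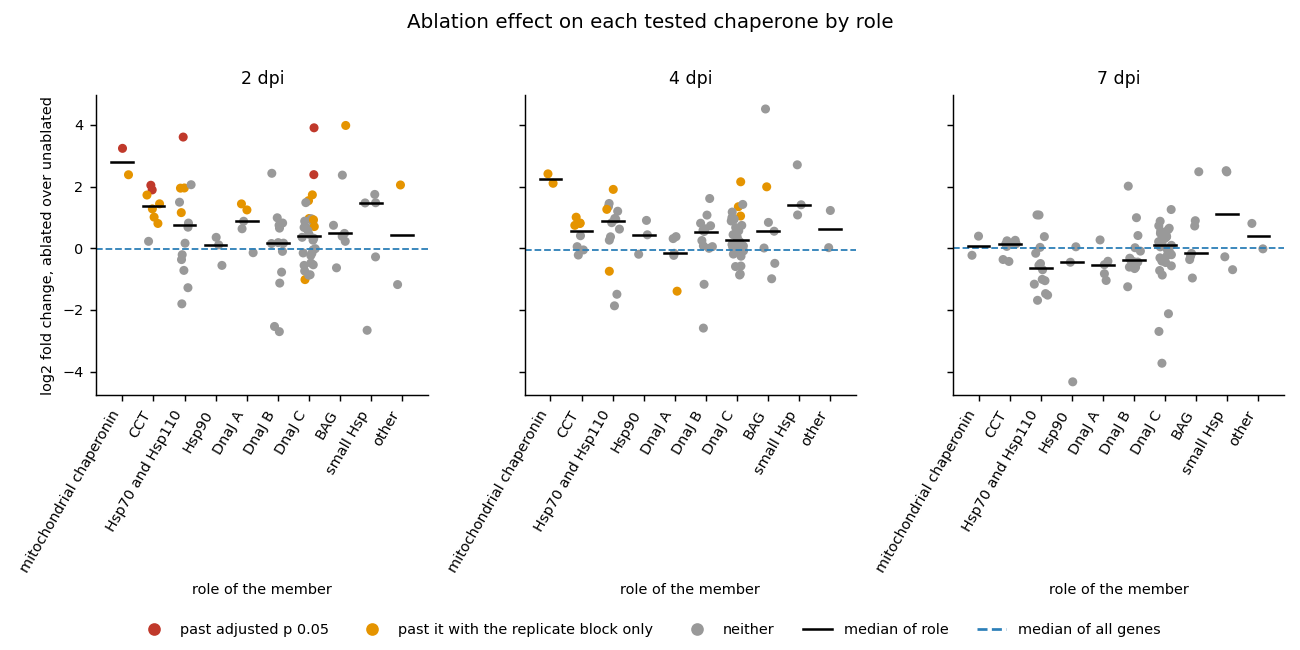
Log2 fold change (ablated over unablated, edgeR without the block) of each tested member by role, with 1 panel for each time. Red points passed an adjusted p of 0.05, orange points passed it with the replicate block only, black bars are role medians of the points drawn, and the dashed line is the median of all genes. Members with no count in a whole group are not drawn. The 6 red points are all at 2 dpi, and at 7 dpi every point is grey.

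Both subunits of the mitochondrial chaperonin rose, hspd1 in both fits at 2 dpi and hspe1 with the block. Hspd1 (Hsp60), its barrel subunit, lies on chromosome 9 at 32475859 to 32490037 on the minus strand (GRCz10). Levels of hspd1 at 2 dpi were 15.7, 9.34 and 22.3 CPM in unablated replicates 1 to 3, and 151, 125 and 172 CPM in ablated ones. At 4 dpi hspd1 stood at 3.51, 13.3 and 11.3 CPM against 53.2, 49 and 47.6 CPM. Every ablated library lay above every unablated one at both times. The log2 fold change of hspd1 was 3.24 ± 0.64 (SE) at 2 dpi, a 9.45-fold rise (adjusted p = 0.019, and 0.00077 with the block), and 2.41 ± 0.62 at 4 dpi (adjusted p = 0.12, and 0.0056 with the block). At 7 dpi hspd1 values of 17.5, 13.1 and 72.3 CPM in unablated and 19.3, 23.3 and 45.3 CPM in ablated libraries overlapped (log2 fold change −0.23 ± 0.59, adjusted p = 0.98).

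Hspe1 (Hsp10), the lid of the chaperonin, is its head-to-head neighbour: it starts at 32490271 and ends at 32495119 on the plus strand, 233 bases from hspd1. Levels of hspe1 at 2 dpi were 62.7, 147 and 329 CPM in unablated and 275, 996 and 1540 CPM in ablated libraries. Replicate 1 was lowest in both groups, so the groups overlapped although each ablated library exceeded its pair. The log2 fold change of hspe1 was 2.38 ± 0.71 at 2 dpi (adjusted p = 0.084, and 0.0028 with the block). At 4 dpi hspe1 stood at 12.4, 27.9 and 28.8 CPM against 104, 97.4 and 96.7 CPM, without overlap (log2 fold change 2.11 ± 0.70, adjusted p = 0.23, and 0.0085 with the block). At 7 dpi its log2 fold change was 0.39 ± 0.68.

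Among the other mitochondrial members, hspa9 encodes mortalin, the matrix Hsp70 that pulls proteins in and folds them. Its levels at 2 dpi were 97.6, 39.7 and 61.4 CPM in unablated and 403, 191 and 176 CPM in ablated libraries, and at 4 dpi 41.3, 86.4 and 45 against 152, 143 and 119 CPM. Neither pair of groups overlapped. Its log2 fold change was 1.96 ± 0.58 at 2 dpi (adjusted p = 0.082, and 0.00078 with the block) and 1.26 ± 0.56 at 4 dpi (adjusted p = 0.39, and 0.0095 with the block). Dnajc11a, whose human counterpart is bound to the mitochondrial membrane complex that shapes cristae, went from 48.2, 12.5 and 15.6 CPM to 163, 43.6 and 47 CPM at 2 dpi, with a log2 fold change of 1.73 ± 0.57 (adjusted p = 0.12, and 0.00042 with the block). Replicate 1 was again apart from the other two in both groups, and each pair differed in the same direction. At 4 dpi dnajc11a did not overlap, at 24, 19.3 and 23.1 against 62.3, 49.7 and 57.3 CPM (log2 fold change 1.35 ± 0.56, adjusted p = 0.34, and 0.0031 with the block).

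The J partners of hspa9, dnaja3a and dnaja3b, had log2 fold changes of 1.24 ± 0.63 and 1.44 ± 0.52 at 2 dpi, which passed the threshold only with the block (adjusted p = 0.0076 and 0.021). At 4 dpi they stood at −0.16 and 0.38. Not every mitochondrial member followed. Dnajc4 went from 20.7, 34.6 and 57.1 CPM to 9.25, 18.2 and 28.2 CPM at 2 dpi and was the only member lower with the block there (log2 fold change −1.02 ± 0.47, adjusted p = 0.29, and 0.017 with the block). Dnajc19 and dnajc15, J proteins of the import motor at the inner membrane in human cells, had log2 fold changes of 0.32 ± 0.60 and 0.86 ± 0.40 at 2 dpi and passed in neither fit. Over the 12 mitochondrial members tested, 1 was called at 2 dpi (6 higher and 1 lower with the block), and 0 at 4 dpi (4 higher with the block). The shares of all genes were 1.39% higher and 0.856% lower at 2 dpi (7.56% and 6.87% with the block) and 4.69% higher with the block at 4 dpi. Added up, they gave 347 to 652 CPM without and 1190 to 2230 CPM with ablation at 2 dpi, and 220 to 235 against 428 to 492 CPM at 4 dpi. Hspe1, at the levels given above, made up most of the 2230 CPM and a smaller part of the 1190 CPM. Shares of counts from the mitochondrial genome itself ran from 6.02 to 12.8% in unablated and from 4.32 to 10% in ablated libraries at 2 dpi.

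Beside hspd1, cct4 and cct7, the members called at 2 dpi without the block were hspa14, dnajc2 and dnajc21. In mammals HSPA14 and DNAJC2 form the complex that waits at the ribosome exit for new chains, and the human and yeast counterparts of Dnajc21 act in the last cytoplasmic steps of making the large ribosomal subunit. These 3 were brought together after their values were seen, and no list of such genes was counted. Hspa14 (chromosome 4, 9591570 to 9600775) stood at 23.6, 8.08 and 6.05 CPM in unablated and 330, 70.7 and 59.5 CPM in ablated libraries at 2 dpi. The groups did not overlap, and ablated replicate 1 was far above the other ablated libraries. The log2 fold change of hspa14 was 3.61 ± 0.70, or 12.2-fold (adjusted p = 0.017, and 0.00024 with the block), and 2.39 without ablated replicate 1, where it was still called. At 4 dpi hspa14 went from 16.8, 17.9 and 16.9 CPM to 79.1, 51.7 and 63.1 CPM (log2 fold change 1.91 ± 0.66, adjusted p = 0.24, and 0.0049 with the block).

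Dnajc2 stood at 6.1, 4.49 and 7.57 CPM in unablated and 33.3, 24.6 and 37.2 CPM in ablated libraries at 2 dpi, a 5.23-fold rise without overlap (log2 fold change 2.39 ± 0.57, adjusted p = 0.038, and 0.0028 with the block). The gene span of dnajc2 overlaps that of pmpcb, a subunit of a mitochondrial protease, on the other strand. Dnajc21 (chromosome 21, 11083991 to 11106827) had the largest log2 fold change among the 6 called members, 3.91 ± 0.76, or 15-fold (adjusted p = 0.017, and 0.00017 with the block). Its levels at 2 dpi were 3.29, 3.01 and 1.44 CPM against 47, 40.7 and 28.5 CPM, and at 4 dpi 4.31, 3.62 and 3.44 against 19, 15.7 and 16 CPM. Both comparisons were free of overlap, and the 4 dpi log2 fold change of 2.16 ± 0.70 passed with the block only (adjusted p = 0.22 and 0.0037). At 7 dpi the log2 fold changes of hspa14, dnajc2 and dnajc21 were 0.38 ± 0.64, −0.21 ± 0.54 and 0.10 ± 0.67, and all 3 genes overlapped between groups.

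**Figure D2:**
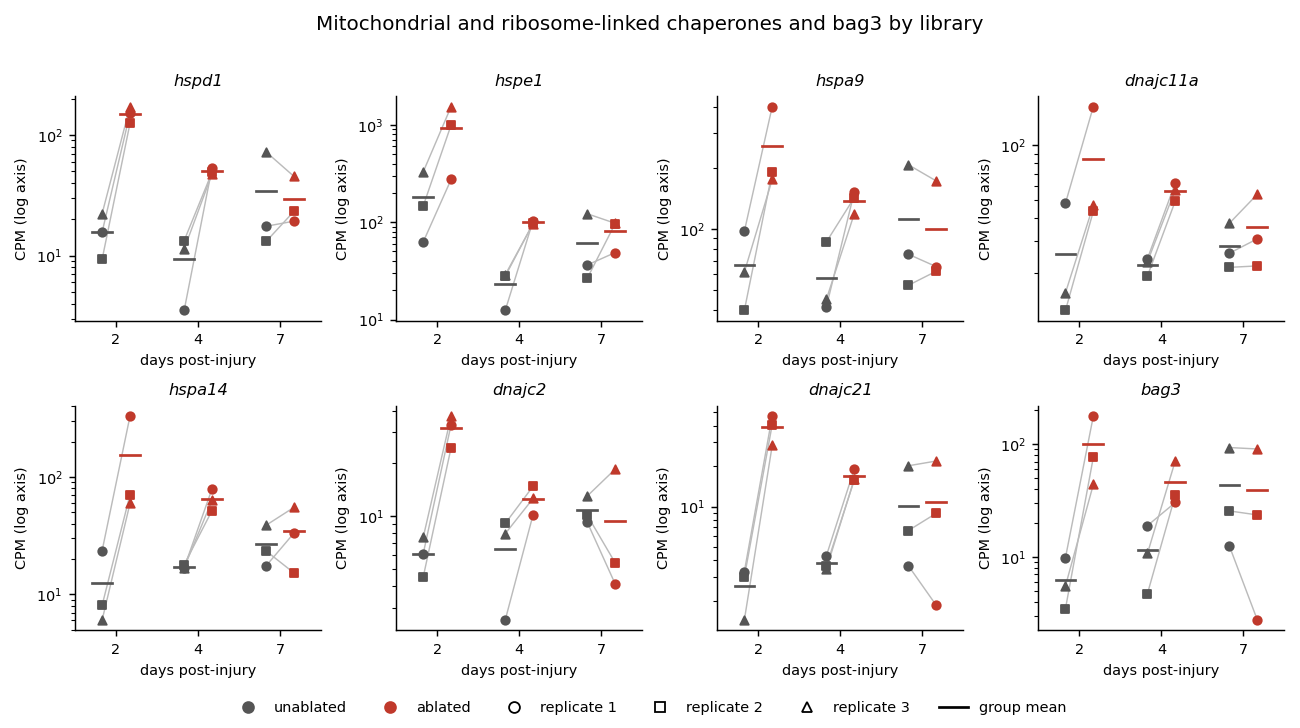
CPM (log axis) of 8 members in each of the 18 libraries by days post-injury. Grey symbols are unablated and red symbols ablated libraries, symbol shape gives the replicate number, thin lines join libraries of the same number, and short bars are group means. For hspd1, hspa9, hspa14, dnajc2, dnajc21 and bag3 the 3 red symbols lie above the 3 grey ones at 2 and 4 dpi, and at 7 dpi they overlap in all 8 panels.

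CCT, the cytosolic chaperonin, is a double ring built from 8 different subunits. At 2 dpi all 8 had positive log2 fold changes, with a median of 1.36 against −0.03 over all genes. Of the 8, 2 rose and with the block 7 rose, against 1.39% and 7.56% of all genes. Cct7 (chromosome 7, 59843215 to 59851172) stood at 85.7, 75.7 and 89.2 CPM in unablated and 385, 267 and 278 CPM in ablated libraries, a 3.71-fold rise (log2 fold change 1.89 ± 0.44, adjusted p = 0.035, and 0.00034 with the block). Cct4 (chromosome 1, 53068959 to 53082043) went from 144, 70.4 and 67.6 CPM to 674, 241 and 246 CPM, a 4.12-fold rise (log2 fold change 2.04 ± 0.50, adjusted p = 0.042, and 0.00024 with the block). Replicate 1 was the highest library of cct4 in both groups, and without ablated replicate 1 the log2 fold change was 1.39 (adjusted p = 0.14). The other subunits past the threshold with the block only were tcp1 at a log2 fold change of 1.73, cct3 at 1.44, cct5 at 1.28, cct8 at 1.01 and cct6a at 0.81. In all 7 the ablated libraries lay above the unablated ones, as they did in 10.5% of all genes.

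Cct2 was the exception among the subunits. It stood at 9.34, 6.24 and 2.87 CPM in unablated and 14.8, 4.44 and 2.32 CPM in ablated libraries at 2 dpi, with a log2 fold change of 0.23 ± 0.73 (adjusted p = 0.93, and 0.98 with the block). Per length its mean over the 18 libraries was the lowest of the 8, where the other subunits had means of 88.8 to 252 TPM. The row named cct2 spans 76623605 to 76624990 on chromosome 4, a short interval inside the span of pacsin2 on the same strand, so its counts may not stand for a whole subunit gene. The spans of cct4, cct5 and cct6a overlap pus10, cmbl and rnf14 on the other strand, and whether counting used strand is not given in the sources used here.

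At 4 dpi the CCT median was 0.58, 0 of 8 passed without the block and 4 rose with it, against 4.69% of all genes. These were cct7, cct3, cct4 and tcp1, at log2 fold changes of 1.01, 0.82, 0.74 and 0.80. Cct5 and cct8 were at −0.22 and −0.05. At 7 dpi values ran from −0.43 to 0.26 and 0 passed in either fit. In unablated cells all 8 subunits had higher fitted levels at 7 than at 2 dpi, with a median of 0.98, and 0 passed the threshold.

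**Figure D3:**
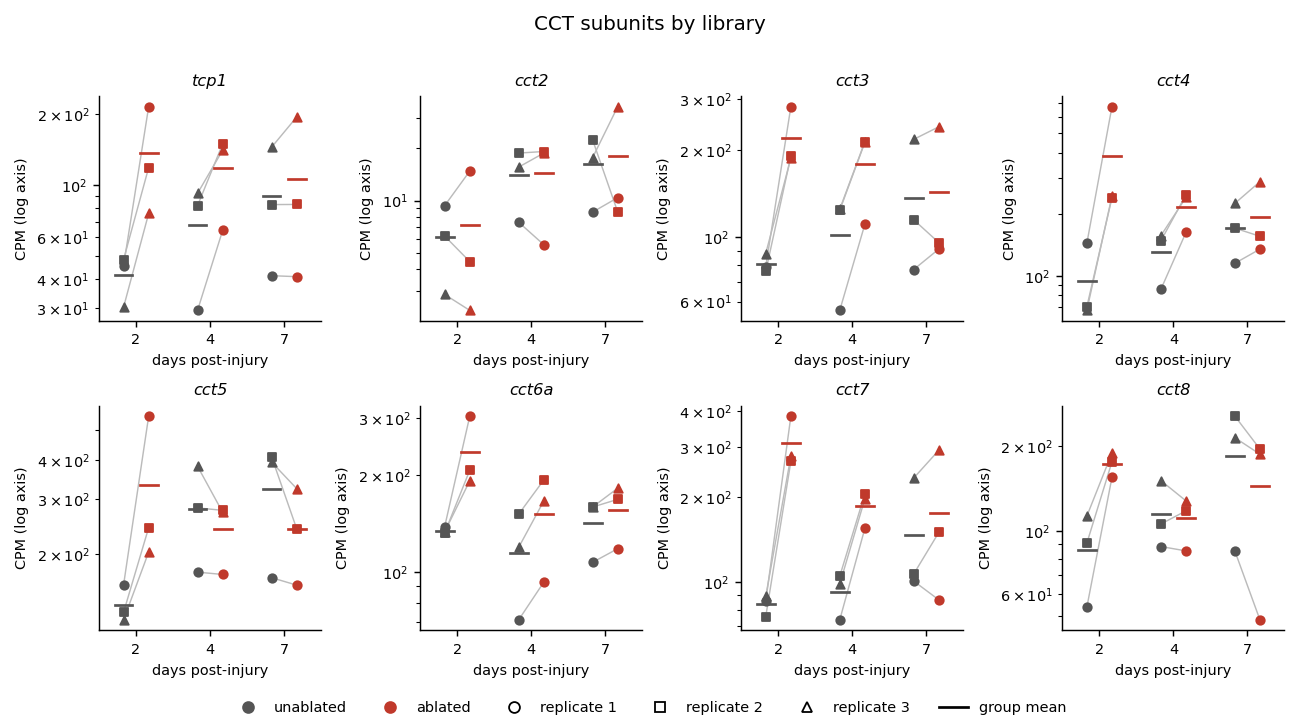
CPM (log axis) of the 8 CCT subunits in each of the 18 libraries, drawn with the same symbols, lines and bars as the plot of mitochondrial members, hspa14, dnajc2, dnajc21 and bag3. At 2 dpi the red symbols of 7 subunits lie above the grey ones, cct2 overlaps, and at 7 dpi all 8 overlap.

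Of the Hsp70 and Hsp110 proteins, hspa8 (Hsc70), which cells make without stress, was the most abundant member in TPM, a length-scaled unit, with a mean of 1880 over 18 libraries. It did not share the rise. Hspa8 stood at 1970, 2110 and 3000 CPM in unablated and 1860, 1580 and 2060 CPM in ablated libraries at 2 dpi (log2 fold change −0.37 ± 0.39, adjusted p = 0.73). At 4 dpi hspa8 went from 3130, 3530 and 4570 CPM to 1440, 2520 and 2740 CPM, without overlap, and was lower with the block (log2 fold change −0.74 ± 0.40, adjusted p = 0.50, and 0.033 with the block). Each ablated library was below its pair at all 3 times. Small nucleolar RNA genes of the SNORD14 family lie inside the hspa8 span on the same strand.

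Of the 4 Hsp110 proteins, which reset Hsp70, 2 rose past the threshold at 2 dpi, with the block only, against 7.56% of all genes. Hspa4b went from 54.3, 45.9 and 54.5 CPM to 103, 92.6 and 149 CPM at 2 dpi, without overlap (log2 fold change 1.16 ± 0.37, adjusted p = 0.11, and 0.0034 with the block). Hspa4a, its duplicate, went from 12.5, 19.9 and 43.8 CPM to 114, 94.3 and 86 CPM (log2 fold change 1.95 ± 0.93, adjusted p = 0.31, and 0.041 with the block). Hsph1 also did not overlap, at 2.22, 0.988 and 3.92 against 6.11, 17 and 6.68 CPM, but passed in neither fit (log2 fold change 2.06 ± 0.79, adjusted p = 0.18). Hspa4l lay on the other side, at 2.2, 4 and 13.6 against 2.04, 1.33 and 4.78 CPM, lower in each pair but overlapping (log2 fold change −1.28 ± 0.86, adjusted p = 0.51). Hspbp1, another exchange factor of Hsp70, went from 5.68, 7.59 and 6.01 CPM to 28.6, 33.1 and 18.3 CPM (log2 fold change 2.05 ± 0.57, adjusted p = 0.068, and 0.0086 with the block). Hspbap1 had −1.18 ± 0.75 and passed in neither fit. Hspa12a, a distant and scarce relative, stood at most at 1.2 CPM at 2 dpi (log2 fold change −1.80 ± 1.52).

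The heat-inducible Hsp70 genes varied widely between replicates, and 0 of the 4 passed a test at any time. Hsp70.3 stood at 27.8, 138 and 200 CPM in unablated and 68.5, 200 and 47.6 CPM in ablated libraries at 2 dpi, at 51.1, 349 and 55.7 against 53.3, 644 and 113 CPM at 4 dpi, and at 506, 119 and 259 against 255, 31.5 and 33.1 CPM at 7 dpi. The groups of hsp70.3 overlapped at each time, and its log2 fold changes were −0.21 ± 1.05, 0.83 ± 1.06 and −1.47 ± 1.07. Hsp70l, on chromosome 8, had 0.82 ± 0.86 at 2 dpi and −1.01 ± 0.86 at 7 dpi. Replicate 2 held the highest ablated value of both genes at 2 and 4 dpi. At 7 dpi hsp70.1 and hsp70.2 were lower in every ablated than in every unablated library, at 118, 87.5 and 78.7 against 54.7, 22.4 and 22 CPM for hsp70.1 and 388, 200 and 224 against 154, 50.3 and 47.8 CPM for hsp70.2. Neither passed a test (adjusted p = 0.82 and 0.78, and 0.17 and 0.16 with the block).

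Hsp70.1, hsp70.2 and hsp70.3 lie within 10000 bases of each other on chromosome 3 and all overlap the span of atp2a1, the calcium pump of fast muscle. Reads from such near-identical copies may have been split or shared by a counting rule that is not known, so their single values are uncertain. Of the 16 heat-inducible members tested, which include hspd1 and hspe1, 1 was called at 2 dpi and 4 with the block, against 1.39% and 7.56% of all genes, and 3 with the block at 4 dpi, against 4.69%. Their median log2 fold change was 0.17 at 2 dpi, 1.28 at 4 dpi (1.08 with hspb9 and hspb11 at their bounds) and −0.45 at 7 dpi. All 16 had positive fold changes at 4 dpi, where 9488 of 20093 genes did. In 13 of them each ablated library was above its pair there, as in 4912 of all genes. At 7 dpi 4 of the 16 were positive and 12 negative. Without hspd1 and hspe1 the median was 0.16 at 2 dpi, 1.08 at 4 dpi and −0.555 at 7 dpi. Of those 14 members, 0 were called at 2 dpi and 2 with the block, and 1 with the block at 4 dpi, against the same shares of all genes. Immediate-early genes, which answer to cell dissociation as heat-inducible genes can, summed to 2380 to 3730 CPM without and 1140 to 2460 CPM with ablation at 2 dpi. Single genes went both ways there: btg2 fell (log2 fold change −2.00, adjusted p = 0.041), and with the block egr1 and fosab fell at −1.37 and −1.48 while fosl1a and atf3 rose at 3.42 and 2.33. At 7 dpi they summed to 3450 to 7310 against 1680 to 2780 CPM, and the part of dissociation in the heat-inducible values was not tested.

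**Figure D4:**
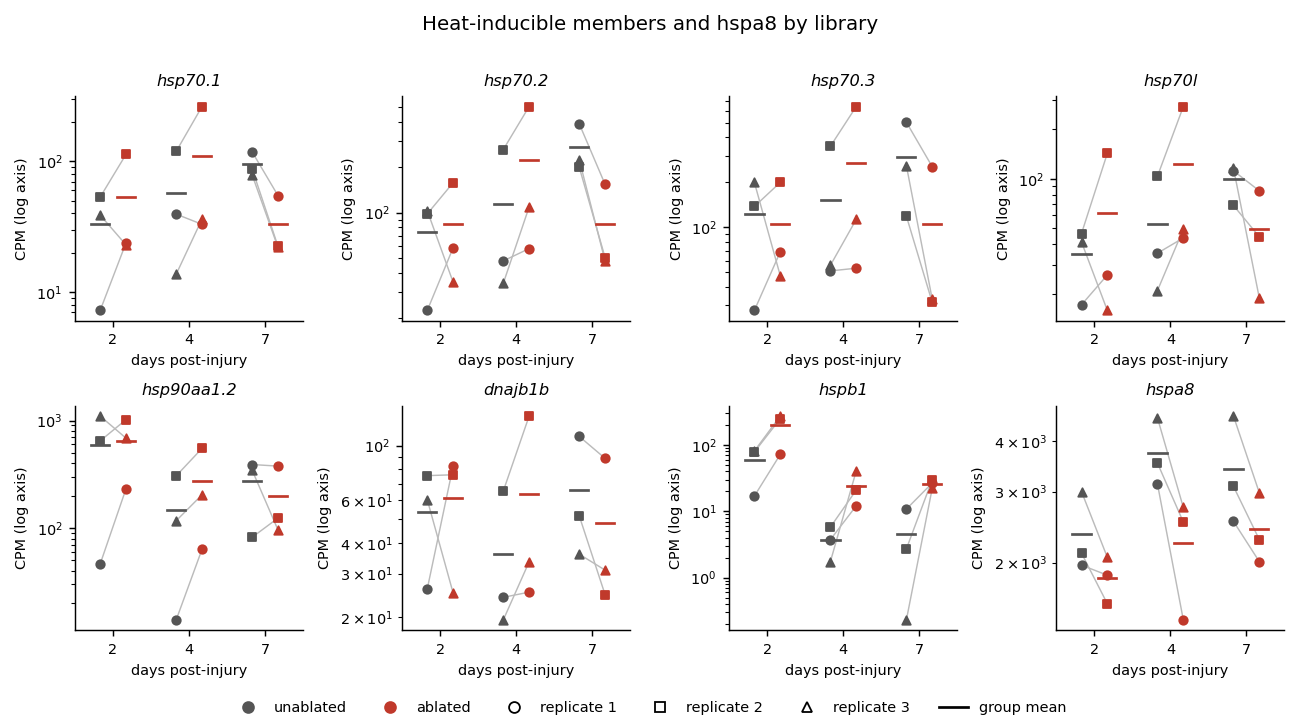
CPM (log axis) of 7 heat-inducible members and of the constitutive hspa8 in each of the 18 libraries, drawn with the same symbols, lines and bars as the plot of CCT subunits. Red and grey symbols of the hsp70 genes, hsp90aa1.2 and dnajb1b mix at 2 and 4 dpi, whereas each red symbol of hspa8 lies below the grey symbol it is joined to.

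Of the 3 Hsp90 genes 0 passed the threshold at any time in edgeR in either fit. Without the block an unadjusted p under 0.05 was seen for 1, at 7 dpi, where 6.61% of all genes had one. Hsp90ab1, the constitutive form and the second most abundant member at a mean of 666 TPM, stood at 787, 1330 and 1620 CPM in unablated and 1190, 1490 and 2100 CPM in ablated libraries at 2 dpi (log2 fold change 0.35 ± 0.42, adjusted p = 0.76). Hsp90aa1.2 spanned 46.4 to 1100 CPM within the unablated group alone at 2 dpi (log2 fold change 0.11 ± 1.06, adjusted p = 0.98). Hsp90aa1.1, which zebrafish muscle needs to fold myosin, had its highest value, 61.7 CPM, in unablated 7 dpi replicate 2, and 3.58 CPM or less in each other library. Its log2 fold change at 7 dpi was −4.33 ± 1.44 (adjusted p = 0.71, and 0.046 in DESeq2), and −0.02 without that library. The spans of hsp90aa1.1 and hsp90aa1.2 overlap by 14042 bases on the same strand, so their counts may not be separate.

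The remaining J proteins had fold changes in both directions. Dnaja2l fell with the block at 4 dpi, from 416, 170 and 280 CPM to 113, 97.7 and 120 CPM, without overlap (log2 fold change −1.39 ± 0.62, adjusted p = 0.39, and 0.008 with the block). It lay lower without overlap again at 7 dpi, at 121, 254 and 203 against 76.9, 96.1 and 107 CPM (adjusted p = 0.81, and 0.13 with the block), and overlapped at 2 dpi. Dnaja1 and dnaja2, the main cytosolic J proteins of type A, had log2 fold changes of 0.88 ± 0.72 and 0.63 ± 0.37 at 2 dpi and passed in neither fit. Of the 13 DnaJ B members 0 passed in either fit at any time. Without the block 0 of them had an unadjusted p under 0.05 at 2 dpi, where 3312 of 20093 genes did. In that fit 2 of them had one at 4 dpi, where 11.7% of all genes did. Dnajb1b, the heat-inducible partner of Hsp70, stood at 26, 75.4 and 60.1 against 82.4, 76 and 25 CPM at 2 dpi. The extremes of the class at 2 dpi were both scarce. Dnajb4 had a log2 fold change of 2.43 ± 1.45, and dnajb13 never exceeded 0.584 CPM, so no fold is given.

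Another 4 DnaJ C members rose at 2 dpi with the block only. With them 7 of the 31 tested rose in the block fit, against 7.56% of all genes. Dnajc10 and dnajc3a, J proteins of the ER lumen that work with the ER Hsp70, had log2 fold changes of 0.96 ± 0.49 and 0.92 ± 0.49 (adjusted p = 0.024 and 0.027 with the block). Dnajc7, which joins Hsp70 to Hsp90, and dnajc24, whose human counterpart takes part in making diphthamide, had 0.71 ± 0.48 and 1.54 ± 0.67 (adjusted p = 0.039 and 0.044 with the block). Dnajc10 also rose with the block at 4 dpi, from 10.2, 10.9 and 18.2 CPM to 24.5, 25.6 and 31.1 CPM (log2 fold change 1.05 ± 0.49, adjusted p = 0.021). Without the block these 4 had adjusted p of 0.25 to 0.52. Dnajc5b was at 0 in all 3 unablated libraries at 2 dpi and held 6 counts in all over the ablated ones, so no fold is given.

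The 3 ER chaperones left out of the members rose at 4 dpi with the block. Hspa5 (BiP), the ER Hsp70, went from 47.4 ± 42.2 to 320 ± 143 CPM (mean ± SD, n = 3), with a log2 fold change of 2.75 ± 0.74 (adjusted p = 0.13, and 0.0012 with the block). Hsp90b1, the ER Hsp90, had 2.25 ± 0.54 (adjusted p = 0.097, and 0.0023 with the block) and dnajb11, a J protein of BiP, 3.21 ± 0.74 (adjusted p = 0.085, and 0.0031 with the block). At 2 dpi hspa5 and hsp90b1 passed with the block at 1.36 and 1.15, dnajb11 at 1.12 did not, and at 7 dpi none of the 3 passed. Of 14 ER members inside the rule, 2 rose with the block at 2 dpi and 1 at 4 dpi, near the 7.56% and 4.69% of all genes.

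Among the BAG proteins, which free clients from Hsp70, bag3 was the one past the threshold for an ablation effect in edgeR, with the block. Bag3 joins Hsp70 to small heat shock proteins and to autophagy. It went from 9.81, 3.46 and 5.51 CPM to 177, 76.4 and 43.8 CPM at 2 dpi and from 18.9, 4.71 and 10.7 CPM to 30.3, 35.2 and 71.2 CPM at 4 dpi, without overlap at either time. The log2 fold change of bag3 was 3.98 ± 1.03, or 15.8-fold, at 2 dpi, just outside the threshold without the block (adjusted p = 0.052) and inside with it (0.0014), and 1.99 ± 0.95 at 4 dpi (adjusted p = 0.43, and 0.036 with the block). At 7 dpi each ablated library was below its pair, at 12.4, 25.5 and 93.1 against 2.75, 23.5 and 90.4 CPM. Bag1 was higher in each ablated library than in its pair at all 3 times, with log2 fold changes of 0.75 ± 0.46, 0.84 ± 0.46 and 0.89 ± 0.46, and passed in neither fit (adjusted p = 0.12 to 0.19 with the block). Bag2 did not overlap at 2 or 4 dpi but never exceeded 1.07 CPM. Its log2 fold change at 4 dpi was 4.52 ± 1.71 (adjusted p = 0.30, and 0.12 with the block), and it passed there in limma on log2 of TPM plus 1 (adjusted p = 0.028, in a range of 0.028 to 0.60 over its alternatives), and bag6l had a log2 fold change of −0.63 ± 0.75 at 2 dpi.

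Small heat shock proteins hold unfolding proteins in a soluble state. Hspb1 (Hsp27) stood at 17, 78.7 and 81.3 CPM in unablated and 72, 249 and 273 CPM in ablated libraries at 2 dpi. At 4 dpi it stood at 3.74, 5.77 and 1.74 against 12.1, 20.9 and 40.6 CPM, and at 7 dpi at 10.8, 2.71 and 0.23 against 26.7, 29.9 and 22.2 CPM. Hspb1 was thus higher in each of the 9 ablated libraries than in its pair, without overlap at 4 and 7 dpi, and it was the tested member with the largest log2 fold change at 7 dpi among those counted in both groups. Its log2 fold changes of 1.75 ± 0.89, 2.71 ± 0.93 and 2.52 ± 0.92 passed in neither fit (adjusted p = 0.14, 0.075 and 0.16 with the block). Hspb8, the partner of bag3, had 1.47 ± 0.70, 1.08 ± 0.69 and −0.69 ± 0.69 and passed in neither fit. Hspb11 and hspb9 were at 0 in most libraries, and a single unablated library held 5.21 CPM of hspb11 at 2 dpi.

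The difference of the ablation effect between times was tested in its own right. Between 4 and 2 dpi 0 members changed in edgeR in either fit, and the background was 0% without and 0.0796% with the block. An unadjusted p under 0.05 was seen for 3 members without the block (4.57% of all genes) and 16 with it (11.8%). Between 7 and 2 dpi 0 members changed without the block (background 0%, and 15 members with an unadjusted p under 0.05 where 10.3% of all genes had one), and with it 0 had a larger and 14 a smaller effect at 7 dpi, against 1.94% and 2.35% of all genes. With the block 37 members had an unadjusted p under 0.05, as did 18.8% of all genes. DESeq2 called 3, all smaller, and 1.49% of the genes it tested. The 14 were 6 CCT subunits (cct3, cct4, cct5, cct7, cct8 and tcp1), the mitochondrial hspd1, hspa9, dnajc11a and dnaja3a, hspa14, dnajc2, dnajc21 and bag3. The difference was −4.61 ± 0.76 on the log2 scale for bag3, −4.10 ± 0.45 for dnajc21, −3.22 ± 0.57 for hspd1 and −1.38 ± 0.27 for cct3. The count rests on the 2 dpi pairs: it was 3 without the first, 5 without the second and 14 without the third. Those fits called 111, 265 and 284 of all genes. Levels without ablation also changed between 2 and 7 dpi. Of the 8 CCT subunits, hspd1, hspe1 and hspa9, 10 of 11 had positive and 1 a negative log2 fold change in unablated larvae. Their median was 0.86, against 0.13 over all genes, and 0 passed the threshold. Unablated bag3 went from 6.26 ± 3.24 to 43.7 ± 43.3 CPM (mean ± SD, n = 3). The part of these changes in the 14 differences was not tested. Between 7 and 4 dpi, a contrast added after the data had been seen, 0 members and 0 genes passed in either fit, and 4 members (24 with the block) had an unadjusted p under 0.05, as did 3.47% of all genes (8.32% with the block).

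**Figure D5:**
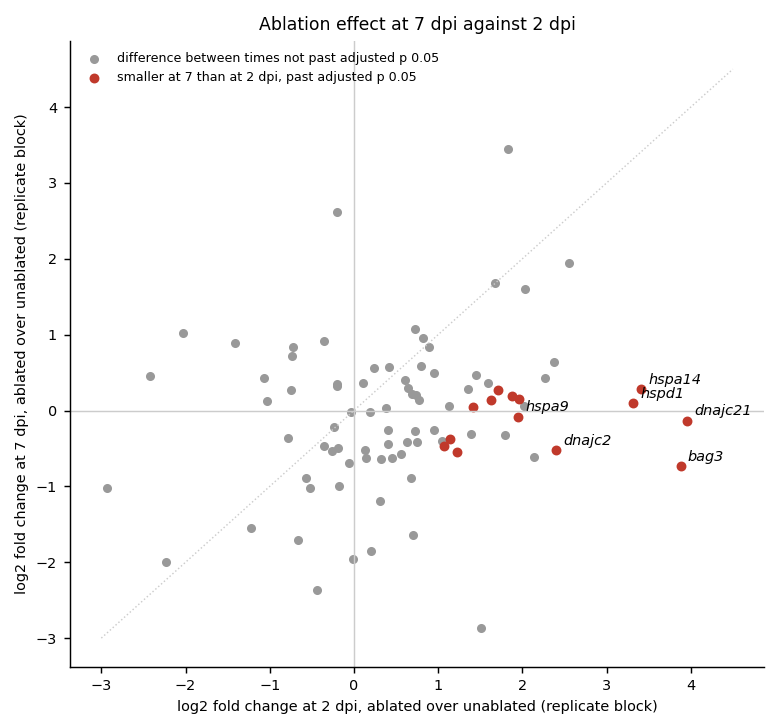
Log2 fold change (ablated over unablated, replicate block) at 7 dpi against that at 2 dpi for tested members with counts in every group compared. Red points are the 14 members whose effect was smaller at 7 than at 2 dpi at an adjusted p of 0.05, and the dotted line marks equal effects. The red points lie to the right of the dotted line, between −0.73 (bag3) and 0.28 (hspa14) on the vertical axis.

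In unablated larvae, 3 members fell and 0 rose between 2 and 7 dpi, where 2.71% and 1.15% of all genes did, so the count that fell is near its background. Dnajc9, a J protein that escorts histones in human cells, went from 27.3, 81.5 and 64.8 CPM to 15.1, 6.68 and 10 CPM (log2 fold change −2.45 ± 0.48, adjusted p = 0.024). Bag1 went from 34.5, 64.6 and 77.2 CPM to 22.9, 8.48 and 8.33 CPM (log2 fold change −2.15 ± 0.48, adjusted p = 0.029), and hspb1 from 17, 78.7 and 81.3 CPM to 10.8, 2.71 and 0.23 CPM (log2 fold change −3.69 ± 0.97, adjusted p = 0.045). None of the 3 overlapped. The same 3 remained without replicate 1 of unablated 2 dpi (6 calls in all, and 1424 over all genes) or 7 dpi (3, and 839). Without any 1 of the other 4 libraries 0 members were called, and 0 to 2 of all genes. Without all first replicates 19 members were called, 9 higher and 10 lower, in a fit that called 13.2% of all genes. The dates in the library names differ between 2 and 7 dpi, so date and time cannot be told apart here. All 22 cell cycle genes tested had negative fold changes here, 2 of them past the threshold, around a median of −2.55. Medians were −5.80 for muscle and −3.02 for lens markers (−5.42 and −2.72 with bounds), and −2.15 for epidermis and cornea markers. They were 0.38 for photoreceptor, 0.66 for neuron and glia, and 0.87 for macrophage and microglia markers. Of 13 muscle markers 2 passed the threshold, both lower. The part of these shifts in the 3 falls was not tested. Time after injury and larval age cannot be told apart in this contrast.

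Partners that the symbol rule does not take in were counted by list, to be read against 1.39% of all genes higher and 0.856% lower at 2 dpi, 7.56% and 6.87% with the block, and 4.69% and 3.93% with the block at 4 dpi. Of 28 mitochondrial import and quality control genes tested, 3 rose at 2 dpi and 16 with the block, 0 fell, and the median was 1.18. The 3 were tomm40, the pore of the outer membrane, at a log2 fold change of 1.93 ± 0.40 (adjusted p = 0.020), timm50, the receptor of the inner membrane channel, at 2.36 ± 0.53 (adjusted p = 0.032), and tomm22, an outer membrane receptor, at 1.60 ± 0.37 (adjusted p = 0.033). At 4 dpi 0 passed without and 8 rose with the block. Of 21 co-chaperones of Hsp70 and Hsp90, ttc4 rose at 2 dpi (log2 fold change 2.83 ± 0.65, adjusted p = 0.035), and with the block 10 rose and 2 fell, the latter being fkbp5 and st13. Of 13 prefoldin subunits and other CCT partners 0 passed at 2 dpi without the block and 5 rose with it, pfdn4, pfdn2, pfdn1, pfdn6 and pdrg1. At 4 dpi with the block 3 of these 13 rose and 2 fell, while 6 of the 21 co-chaperones rose and 0 fell. Of 4 heat shock factors and their regulators 0 passed at 2 dpi in either fit, and hsf2 was lower at 4 dpi with the block (log2 fold change −1.21 ± 0.56, adjusted p = 0.41, and 0.020 with the block). Between 2 and 7 dpi in unablated larvae fkbp5 rose by 3.19, and ptges3b, pfdn6, uri1 and hsbp1a had log2 fold changes of −2.33, −2.56, −1.53 and −3.02 (adjusted p = 0.028 to 0.048).

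Levels per gene length were uneven across the members. By TPM, hspa8 and hsp90ab1 stood first and second by mean and by median over the 18 libraries, followed by cct5, cct4 and dnaja2 at means of 252, 192 and 142 TPM. Hsp70.3 was sixth by mean at 142 TPM and fourteenth by median at 66.3 TPM, with a range of 16.7 to 610 TPM. Hspa8 itself ran from 633 to 3600 TPM and hsp90ab1 from 387 to 1190 TPM.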

How the data were processed

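The authors deposited 1 table for each time, with total counts and TPM of each gene per the file headers. Sorted cells went into SMART-Seq v4 cDNA synthesis, then Nextera XT, per the labels' protocols, and the genome build was GRCz10, per the submitters' processing notes. Neither the aligner nor the counting rule, its strand setting or the annotation release is named in the sources used here. The sequencing name of unablated 4 dpi replicate 1 contains the word positive, and its label, which corrects this to MTZ-, was followed. No column was left without a sample.

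Deposited counts were filtered with filterByExpr by group, scaled by TMM and fitted in edgeR 4.0.16 (R 4.3.3) with robust quasi-likelihood dispersions and 6 group means over 18 libraries. CPM uses TMM-scaled library sizes, and p is adjusted by Benjamini-Hochberg over 20093 genes with a threshold of 0.05. SE is that of the log2 fold change, derived as its absolute value over the square root of the quasi-likelihood F statistic. The common biological coefficient of variation was 79.9%. The labels do not say that replicates came from separate clutches, so p-values measure the spread between these samples, which may be technical. After group means were removed, same-numbered ablated and unablated libraries correlated at 0.187 to 0.593 and others at 0.183 or less, so the 9 pairs were taken as a block. The pairing comes from the labels' replicate numbers and this check. The check separates replicates 2 and 3 at 2 dpi only weakly. Their same-numbered libraries correlated at 0.235 and 0.369, and the crossed ones at 0.183 and 0.157. Library names of replicates 2 and 3 carry dates, which both members of a pair share. The 2 pairs at 2 dpi share 1 date, and so do the second pairs at 4 and 7 dpi. Alternatives were DESeq2 1.42.0, limma 3.58.1 on log2 of TPM plus 1 or 0.1, other scaling and filters, and left-out libraries. Bounds for genes without a count in a group allow 3 counts per library.

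Members and gene lists were chosen with earlier results of these data known. The genes named are those called in any contrast, up to 12 per ablation contrast with the block, a list of well-known chaperones, the 5 most abundant and the extremes of each role at 2 dpi, with the left-out ER genes and up to 4 called genes of each pathway list. Others were named where they help to describe a role, after their values were seen. The pipeline was tested on simulated data for 2 dpi, over 20093 genes. Of 50 changes of each size it found, without the block, 0% at 2-fold, 6% at 4-fold, 50% at 8-fold and 62% at 16-fold. With the block it found 0%, 0%, 18% and 48%. Counts were drawn with the spread of the fit without the block, and no pair effects were simulated. The values with the block thus do not give its sensitivity in the real libraries.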

Additional observations from a re-analysis of the deposited data

Results flagged for a closer look

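The ablation effect differed between 7 and 2 dpi for 14 members when the pairs were in the model, and for 0 members and 0 genes without them. All 14 effects were smaller at 7 dpi. On the log2 scale the difference was −4.61 for bag3, −4.10 for dnajc21, −3.22 for hspd1, −3.13 for hspa14, −2.92 for dnajc2 and −2.03 for hspa9. It was −1.81 for cct4, −1.78 for dnaja3a, −1.68 for cct7, −1.53 for cct8, −1.52 for cct5, −1.49 for tcp1, −1.44 for dnajc11a and −1.38 for cct3. Cell cycle genes moved the other way, with 22 of 22 having a larger fitted effect at 7 than at 2 dpi and a median difference of 4.09, of which 2 passed with the block. In unablated larvae bag3 went from 6.26 ± 3.24 CPM at 2 dpi to 43.7 ± 43.3 CPM at 7 dpi (mean ± SD, n = 3). Unablated dnajc21 went from 2.58 ± 0.998 to 10.1 ± 8.78 CPM. The part of cell cycle genes, and of changes without ablation, in the difference was not tested.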

How the results depend on the processing

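Counts of members called depended on the fit, and so did those of all genes called, given in brackets. At 2 dpi 6 (452) became 25 (2901) with the replicate block, 14 (1759) in DESeq2 and 2 (55) with the 2 dpi libraries alone. In limma on TPM 3 were called with a pseudocount of 1 (381) and 3 with 0.1 (463). Without all first replicates 3 (327) were called, and leaving out 1 library gave 0 to 4 (19 to 262). At 4 dpi 0 (19) became 14 (1732) with the block and 3 (206) with the 4 dpi libraries alone. It became 1 (228) in limma with a pseudocount of 1 and 4 (717) in DESeq2. At 7 dpi 0 (0) became 1 (133) in DESeq2. The change of effect from 2 to 7 dpi went from 0 (0) to 14 (862) with the block and 3 (285) in DESeq2. For unablated larvae 3 (776) became 0 (1) with only the times compared, 9 (2569) in DESeq2 and 19 (2654) without all first replicates. In DESeq2 the members' share in this unablated contrast was not above that of all genes. Leaving out 1 library gave 0 to 6 (0 to 1424). No paired fit was possible there, because the block absorbs it. Other scaling and no filter changed no count past 1.5 times. In limma on TPM the median log2 difference of all genes between unablated 7 and 2 dpi was 0.33 with a pseudocount of 1 and 0.66 with 0.1, against 0.13 in edgeR. The cause of these shifts was not tested, and the fits that leave libraries out also hold fewer of them.

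Fits chosen after seeing the data took the block further. Without the first or second pair at 2 dpi 13 and 16 of the 25 members called with the block remained. Those fits called 1196 and 1477 of all genes in place of 2901. Without pair 1, 2 or 3 at 4 dpi 5, 9 and 5 members were called in place of 14. Of all genes 357, 924 and 337 were called there in place of 1732. For the change from 2 to 7 dpi 14 became 3 and 5 without the first or second 2 dpi pair. Over all genes 862 became 111 and 265. Single genes were followed for the 45 members named by rule, in the 3 ablation contrasts. Of their fold changes past the threshold, 0 changed sign in any alternative. Fold changes not past it changed sign in 87 comparisons with 1 library left out and in 45 with other settings. Sign and call both stayed the same in 699 and 973. Up to 1000 sorted cells to a library, amplified without molecular identifiers, and 3 libraries per group limit all values. At this spread changes of 4-fold or less were rarely found in simulated 2 dpi data, which held no pair effects.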
